A study of Rattus norvegicus with 25 samples.

Results

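The change from weaning to adulthood was measured in the medial prefrontal cortex, the front midline part of the cortex, of wild-type Wistar rats, an outbred laboratory strain. RNA from postnatal day 70 (P70, adult) was compared with RNA from postnatal day 21 (P21, about the age of weaning), with 5 libraries at each age. These 10 libraries were chosen by the age in their labels from 25 in all, and the other libraries came from P8, P14 and P35, again 5 each. No treatment is named for any group, and the sources used here give neither sex nor the number of animals per library. Whether the libraries are separate animals is not stated. The p-values therefore cover the spread among the libraries, which may be technical.

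The prefrontal cortex is among the last cortical areas to mature. After weaning its neurons are in place, and what continues is the wrapping of axons in myelin, the pruning and strengthening of synapses, the maturation of inhibitory neurons and their surrounding matrix, and the decline of programs for axon growth. Which of these processes a transcript belongs to cannot be said here, because the deposited table lists Ensembl gene IDs without names and 0 of its 29516 IDs matched a symbol in the reference used. For the same reason the tissue label was not checked against marker genes. Transcripts are therefore described by level, timing and direction, and 4 gene IDs are given by ID. They are the 2 largest rises and the 2 largest falls under a rule on level and overlap that is stated with the first of them.

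General measures of the libraries showed no difference between the 2 ages that passed a test. The unit is FPKM, sequenced fragments scaled to transcript length and to library size. Gene IDs with at least 1 FPKM numbered 13066 ± 144 (SD, n = 5) at P21 and 13094 ± 245 at P70 (two-sided exact permutation test, p = 0.857, and 0.857 after adjustment over 4 measures). Depth relative to the median library ran from 0.387 to 1.31 at P21 and from 0.447 to 1.05 at P70, lowest in P21 replicate 5 and P70 replicate 2. The FPKM total and the share held by the 10 most abundant gene IDs did not pass either (exact permutation tests, p = 0.437 and 0.444), and the smallest p this design allows is 0.00794. P21 replicate 5 also had the lowest mean correlation with its age (0.931, against up to 0.961 for the others). Results from P21 to P70 that rest on it are therefore given without it as well.

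A modest part of the transcriptome differed between weaning and adulthood. Of 14128 gene IDs tested, 344 were higher at P70 (2.43%) and 520 were lower (3.68%), 864 in all or 6.12% (limma, adjusted p under 0.05). A gene ID was tested where 5 or more of the 25 libraries reached 1 FPKM, and changes are differences of means on log2(FPKM + 0.5), a scale that understates changes of low values. The median called rise was 0.54 log2 units, or 1.45-fold, and the median called fall was -0.53, or 1.45-fold lower at P70. A change of at least 1 log2 unit, that is a doubling or halving, was called for 24 rises and 39 falls. The median over all tested gene IDs was -0.01. The 5 libraries of P21 and the 5 of P70 did not overlap at 1089 gene IDs (7.71%), 462 higher and 627 lower at P70.

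The count of calls and the balance of directions depended on the scaling and on the grouping of libraries. After scaling every library to the same FPKM total, the calls were 10 rises and 10 falls, and the median change over all gene IDs was 0.15. Before adjustment 546 gene IDs then had p under 0.05 (limma), fewer than chance alone would give on average. As deposited, 2699 did (19.1%). With the first number of the library title as a random block the counts were 189 and 259. The estimated correlation between libraries that share this number was 0.33. Unless a block is named, the limma p-values treat the libraries as independent. The first title number never recurs between P21 and P70, so groups of libraries that share it lie within 1 age. Without P70 replicate 3 the excess of falls turned round, to 397 rises and 340 falls, and without P70 replicate 5 it grew to 240 and 578. Without P21 replicate 5 there were 312 rises and 453 falls.

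**Figure D1:**
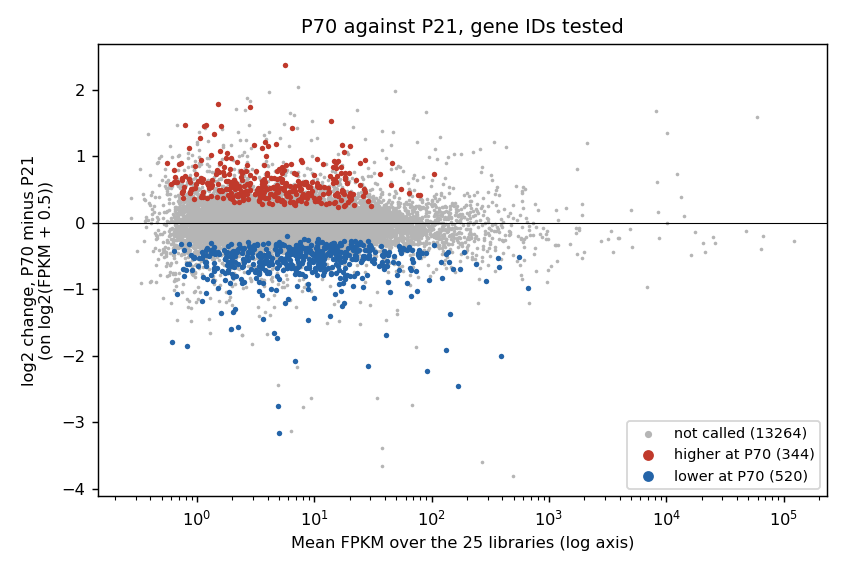
Change from P21 to P70 (log2 units, vertical) of each of the 14128 gene IDs tested against its mean FPKM over all 25 libraries (log axis, horizontal). Red points are the 344 called rises, blue points the 520 called falls and grey points the rest; most called changes are under 1 log2 unit, and called points above 100 FPKM are nearly all falls.

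Complete switches were hardly seen. With at least 1 FPKM asked for in every library of one age and under 0.1 FPKM in every library of the other, 0 tested gene IDs were found in each direction. Of the called falls, 1 was listed at 0 in every P70 library, and 0 called rises were so at P21. Crossing the level of 1 FPKM was more common: 44 called rises had a mean below 1 FPKM at P21 and at least 1 at P70, and 57 called falls went the other way. Another 62 gene IDs held both a value under 1 and a value of at least 10 FPKM within P21 or within P70, and 0 of them were called.

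As deposited, the share of gene IDs that rose declined with level, while falls were found at all levels. Under 3 FPKM, by the mean over all 25 libraries, 130 of 3958 gene IDs rose (3.28%) and 118 fell (2.98%). From 10 to 30 FPKM 73 of 3473 rose (2.1%) and 158 fell (4.55%). From 30 to 100 FPKM 8 of 1206 rose and 53 fell, and at 100 FPKM or more 1 of 495 rose and 19 fell. Rises thus made up 52.4% of the calls in the lowest class and 5% in the highest. The slope depended on the scaling and on single libraries. Quantile normalization, which forces all libraries to the same distribution, gave shares of 52.5% and 33.3% (4 rises and 8 falls in the highest class). From the lowest class to the highest, 4.8%, 4.7%, 4.9%, 3.2% and 0.8% of tested gene IDs then rose, with no decline up to 30 FPKM. Median-of-ratios scaling gave 57.3% and 16.7% of the calls, and 5.3%, 5.6%, 4.8%, 3.1% and 1.2% of tested gene IDs rose. Without P70 replicate 3 the shares were 65.1% and 23.1% (3 rises and 10 falls in the highest class). Falls in the highest class were also fewer by over 1.5 times without P21 replicate 2 (12) or 3 (11) and without P70 replicate 2 (11) or 4 (9). The median change of all 495 gene IDs in the highest class was -0.1 as deposited, -0.07 with median-of-ratios scaling, 0.03 with quantile normalization and 0.1 with equal FPKM totals, so its direction flipped between scalings. It also turned positive without P70 replicate 3 (0.03) or P21 replicate 1 (0.0088).

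**Figure D2:**
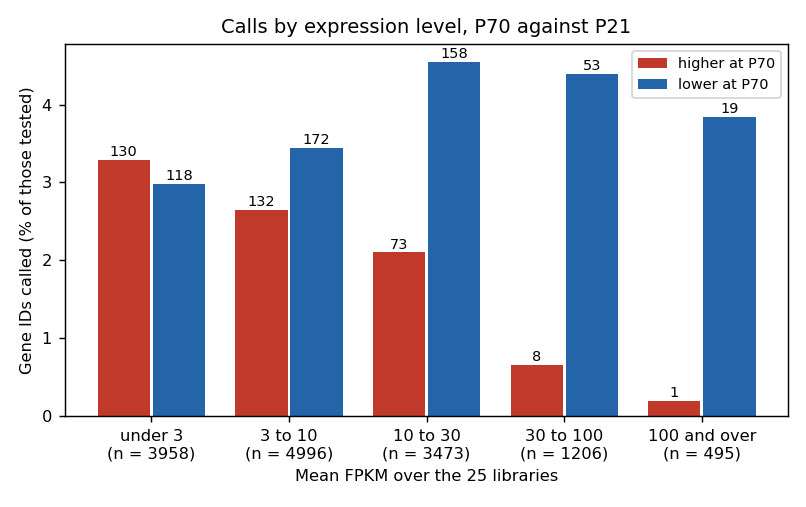
Share of tested gene IDs called higher (red) or lower (blue) at P70, in percent, in 5 classes of mean FPKM; the number above each bar is the count of gene IDs and n the number tested. As deposited, rises thin out from 130 of 3958 in the lowest class to 1 of 495 in the highest, while falls stay between 2.98% and 4.55% of the class.

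The largest rise under the rule for printed IDs was ENSRNOG00000011647. The rule asks for a call, libraries of the 2 ages that do not overlap, a mean of 5 FPKM or more at the higher age and no value under 1 beside one of 10 or more FPKM within an age. Called rises outside it reached 2.38 log2 units. In P21 replicates 1 to 5 ENSRNOG00000011647 was at 1.98, 1.63, 1.14, 1.38 and 0.825 FPKM, and in P70 replicates 1 to 5 at 7.23, 7.84, 4.96, 2.95 and 6.82 FPKM. Every P70 library lay above every P21 library, with P70 replicate 4 the nearest to them. The mean went from 1.39 ± 0.443 to 5.96 ± 2 FPKM (SD, n = 5), 4.28-fold, with a log2 change of 1.74 ± 0.26 (SE, limma adjusted p = 0.000136). The values rest on few reads, 3 to 21 per P21 library and 29 to 68 per P70 library. At P8 and P14 this gene ID stood at 1.47 ± 0.547 and 1.82 ± 0.924 FPKM (SD, n = 5), close to its P21 mean, and the change from P8 to P14 did not pass (limma adjusted p = 0.594). It was at 3.53 ± 1.06 FPKM at P35 (SD, n = 5), between the levels of P21 and P70.

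The next largest rise, ENSRNOG00000015763, stood near its P70 level already at P35. It was at 10.1, 9.29, 10.4, 8.29 and 10.8 FPKM in P21 replicates 1 to 5 and at 29.3, 32.5, 22.9, 30.1 and 30.5 FPKM in P70 replicates 1 to 5. The lowest P70 library was more than 10 FPKM above the highest P21 library. The log2 change was 1.52 ± 0.16 (SE, limma adjusted p = 1.8e-06), a 2.98-fold difference of means, on 70 to 191 reads per P21 library and 245 to 529 per P70 library. It had climbed from 0.246 ± 0.181 FPKM at P8 and 1.11 ± 0.326 at P14 (SD, n = 5). P35 libraries ran from 23.5 to 36.2 FPKM, each within or above the P70 range of 22.9 to 32.5. The change from P21 to P35 was 1.51 ± 0.16 and that from P35 to P70 was 0.02 ± 0.16 log2 units (SE). Their difference, after P35 minus before it, was -1.49 ± 0.28 (SE), which did not pass over all gene IDs (limma adjusted p = 0.0612).

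The other 10 of the 12 largest rises were 1 to 1.42 log2 units each, with means of 2.52 to 14.9 FPKM at P21 and 6.27 to 31.7 FPKM at P70. They were thus scarce to moderately abundant transcripts that grew between 2.08-fold and 2.91-fold. Between P8 and P14, 4 of the 12 had already risen and 1 had fallen (limma, adjusted p under 0.05), beside 13.6% and 15.3% of all gene IDs tested. By the mean of the P21 and P70 levels, the most abundant called rise went from 84.9 ± 3.29 FPKM at P21 to 114 ± 12.7 at P70 (SD, n = 5), a log2 change of 0.42 with an SE of 0.11 (limma adjusted p = 0.0201). Its P21 libraries held 79.7 to 88.4 FPKM and its P70 libraries 93.2 to 125 FPKM, with no overlap.

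**Figure D3:**
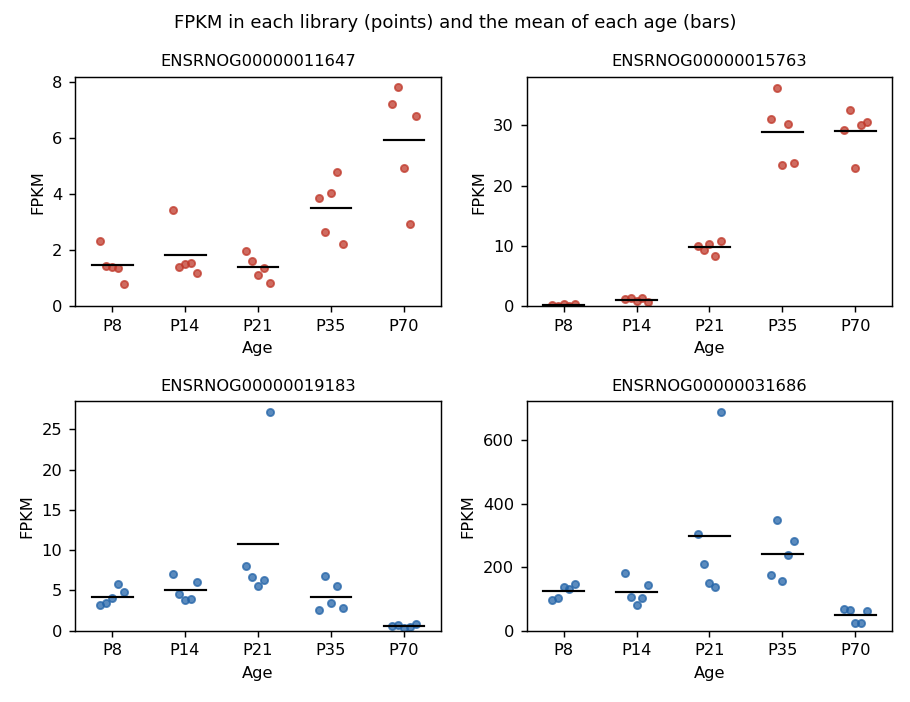
FPKM of the 2 largest rises (red, upper panels) and the 2 largest falls (blue, lower panels) under the rule for printed IDs, in each of the 25 libraries, by age. Each point is 1 library and each black bar the mean of an age, on linear axes from 0. ENSRNOG00000015763 is near its P70 level at P35, ENSRNOG00000031686 overlaps between P21 and P35 and is lower in every P70 library, and P21 replicate 5 stands far above the other P21 libraries in both lower panels.

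The largest fall was ENSRNOG00000019183, which was under 1 FPKM in every P70 library. It was at 7.98, 6.66, 5.51, 6.36 and 27.1 FPKM in P21 replicates 1 to 5 and at 0.553, 0.678, 0.306, 0.41 and 0.803 FPKM in P70 replicates 1 to 5. P21 replicate 5 was far above the other 4, and even the lowest P21 library was well above the highest P70 library. The log2 change was -3.17 ± 0.32 (SE, limma adjusted p = 7.25e-07). Without P21 replicate 5 it was -2.77 (limma adjusted p = 1.53e-07). The ratio of means, P21 over P70, was 19.5 with all libraries and 12 without that one. Reads numbered 201 to 586 per P21 library and 17 to 33 per P70 library. Its levels at P8 (4.24 ± 1.05 FPKM), P14 (5.04 ± 1.44) and P35 (4.23 ± 1.83; SD, n = 5) were close to each other. The P70 mean was below that of every earlier age, with the change from P35 to P70 at -2.11 ± 0.32 log2 units (SE, limma adjusted p = 0.00296).

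ENSRNOG00000031686, the next largest fall under the rule for printed IDs, was an abundant transcript before adulthood. A called fall outside the rule was larger, at -2.76 log2 units. Its mean of 4.46 FPKM at P21 missed the 5 FPKM asked for. It was at 304, 211, 151, 137 and 689 FPKM in P21 replicates 1 to 5 and at 68.3, 65.3, 25, 24.6 and 63.2 FPKM in P70 replicates 1 to 5. The ages did not overlap, and P21 replicate 5 was again the highest and P70 replicates 3 and 4 the lowest. The log2 change was -2.46 ± 0.38 (SE, limma adjusted p = 0.000169), a 6.05-fold difference of means. Without P21 replicate 5 it was -2.09 (limma adjusted p = 0.000353). At P8 and P14 the level was 124 ± 22.1 and 123 ± 40.1 FPKM, and at P35 it was 241 ± 79.2 FPKM (SD, n = 5).

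A set of 5 of the 12 largest falls, those of rank 2 (ENSRNOG00000031686), 3, 4, 6 and 7, shared this late timing. The set was picked after its values were seen, as the falls that passed from P35 to P70 and had an adjusted p over 0.5 from P21 to P35. Their means were 44 to 568 FPKM at P21, 40.7 to 655 FPKM at P35 and 9.28 to 140 FPKM at P70. The changes from P21 to P35 were -0.09 to 0.34 log2 units, and those from P35 to P70 were -2.17 to -2.36 (limma adjusted p = 0.000659 to 0.0236). The step from P21 to P35 includes P21 replicate 5 and is not given without it. Relative to each P35 mean, the 5 gene IDs stood at 0.506 to 0.916 in P21 replicates 2 to 4. They stood at 0.777 to 1.26 in replicate 1 and at 0.977 to 2.855 in replicate 5. Replicate 5 thus raised the P21 level in this step. The difference between the 2 steps was -2.13 to -2.59 log2 units and did not pass for any of the 5 over all gene IDs (limma adjusted p = 0.0795 to 0.907). The falls of rank 3 and 4 missed the threshold from P35 to P70 with the title number as a random block (limma adjusted p = 0.0957 and 0.0708).

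The 5 gene IDs shared their extreme libraries at P21, P35 and P70, though not the order of the others. In all 5, P21 replicate 5 was the highest P21 library, P35 replicate 2 the highest P35 library and P70 replicates 4 and 3 the lowest and second lowest P70 libraries. The pattern was not particular to them. The fall of rank 1 also had its highest P21 and P35 values in those libraries (27.1 and 6.77 FPKM). Its lowest P70 values were in replicates 3 and 4 (0.306 and 0.41 FPKM). The remaining large falls shared the pattern at most in part. The fall of rank 6, for example, reached 998 FPKM in P21 replicate 5, while the other P21 libraries held 332 to 603 FPKM. At P70 it was at 77.5 and 86.3 FPKM in replicates 4 and 3 against 167 to 201 FPKM in the other 3. P70 replicates 3 and 4 carry the same first number in their titles, whose meaning the labels do not give. They also had the lowest medians over all gene IDs at P70, at -0.2 and -0.08 log2 units. The part of these offsets in the pattern was not tested. With P21 replicate 5 left out, P21 means were 3.29 to 4.07 times the P70 means, and all 5 falls still passed from P21 to P70 (limma adjusted p = 0.00027 to 0.00517). P21 replicate 5 is also the shallowest library, and the part of depth in this pattern was not tested. With equal FPKM totals, the fall of rank 7 did not pass from P21 to P70 (limma adjusted p = 0.126). Whether these IDs share reads with one another or with near-identical copies cannot be told from the table.

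**Figure D4:**
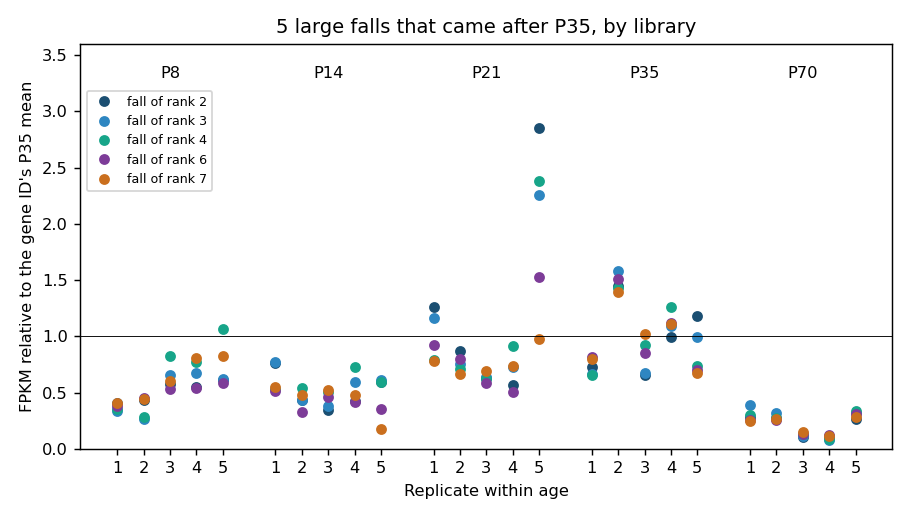
FPKM of the 5 large falls that came after P35, each divided by its own mean at P35 (vertical, line at 1), in every library (horizontal, replicates 1 to 5 within each age); each color is 1 gene ID. P21 replicate 5 is the highest P21 library for each gene ID and spreads most between them, and all P70 libraries lie below every P21 and P35 library.

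The remaining large falls had other time courses. The falls of rank 8, 10, 11 and 12 passed from P21 to P35, and no fall of the 12 passed in both steps (0). That of rank 8 went from 24.7 ± 2.76 FPKM at P21 to 9.07 ± 2.1 at P35 and 7.37 ± 1.48 at P70 (SD, n = 5), after 83 and 80.9 FPKM at P8 and P14. That of rank 12 went from 103 ± 6.03 through 53.1 ± 7.6 to 40.2 ± 7.95 FPKM (SD, n = 5), after 302 and 222 FPKM at P8 and P14. Both were thus lower at P21 than at P8. Means of the falls of rank 10 and 11 were 10.2 and 17.1 FPKM at P8 and 14.1 and 15.4 FPKM at P21. The fall of rank 5 varied widely between P70 libraries. It was at 7.62 to 11.4 FPKM at P21 but at 6.17, 5.92, 0.84 and 1.69 FPKM in P70 replicates 1 to 4 and listed at 0 in replicate 5. These values rest on very few reads, 5 to 15 per P21 library and 7, 3, 1, 2 and 0 in P70 replicates 1 to 5. Differences between the P70 libraries may thus be counting noise.

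At the median of the called gene IDs, most of the change from P21 to P70 was in place by P35. On a scale from 0 at P21 to 100% at P70, the median called rise stood at 65.6% at P35 and the median called fall at 65.2%, while P21 to P35 takes 14 of the 49 days (28.6%). The gene IDs were chosen on the difference between P21 and P70, in a fit whose filter and error estimate also use P35. The shares, also beside the share of days, are therefore a description and carry no test. Single P35 libraries gave medians of 33.4% (replicate 5) to 89.4% (replicate 4) for rises and 40% (replicate 4) to 91.1% (replicate 5) for falls. Replicates 5 and 4 were also the P35 libraries with the lowest and highest median over all gene IDs, at -0.16 and 0.22 log2 units. With median-of-ratios scaling the spread narrowed, to 53.6% to 74.6% for rises and 60.4% to 76.6% for falls, with means of 64.8% ± 7.49 and 66.8% ± 6.26 (SD, n = 5). With equal FPKM totals, single libraries ran from 13.6% to 153% for rises and from -80.9% to 155% for falls.

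Taken gene ID by gene ID, P35 lay between P21 and P70 for 329 of the 344 rises and 482 of the 520 falls. Choosing gene IDs on a large difference between P21 and P70 itself makes a P35 value between them likely. These counts therefore carry no test, and the share over all gene IDs tested is not given here. P35 lay beyond the P70 level for 13 rises and 32 falls, and on the far side of P21 for 2 and 6. The median rise of at least 1 log2 unit stood at 74.3% and the median fall of that size at 57.5%. In the step before P35 all 12 of the largest rises passed and 4 of the 12 largest falls did. In the step after P35 the counts were 0 rises and 6 falls (limma, adjusted p under 0.05), and the difference between rises and falls was not tested. Over all gene IDs, 229 passed in the first step (1.62%) and 17 in the second (0.120%), before and after P35. These comparisons share the P35 libraries with each other and the P21 or P70 libraries with the span.

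Whether the change after P35 differs from the change before it was tested for each gene ID. The test passed for 4 of 14128 (0.0283%, limma, adjusted p under 0.05). Before adjustment 595 had p under 0.05, fewer than chance alone would give on average. For the other gene IDs unequal steps were not shown. Of the 4, one fell from 4.46 ± 0.411 FPKM at P21 to 0.703 ± 0.107 at P35 and 0.237 ± 0.103 at P70 (SD, n = 5). Its log2 change was a fall of 2.04 before P35 and a further -0.71 after it. Its P35 and P70 levels were near or below the 0.5 FPKM added before logs, which understates the later step most. Only 2 to 13 reads per P70 library stand behind it. Another rose from 2.63 ± 0.57 to 6.69 ± 1.45 FPKM by P35 and was at 6.29 ± 0.826 at P70 (SD, n = 5). The third had the same shape, at 1.55 ± 0.236, 3.56 ± 0.546 and 3.07 ± 0.171 FPKM (SD, n = 5). The last was lowest at P35, at 2.13 ± 0.402, 1.52 ± 0.139 and 2.93 ± 0.306 FPKM (SD, n = 5). These 4 were the ones that passed and are given without IDs.

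The late changes were set against the earlier history of the same gene IDs, using the means of P8 and P14, which do not enter the difference between P70 and P21. The P8 and P14 libraries do enter the filter and the error estimate behind the calls, and with the P21 and P70 libraries alone there were 229 rises and 349 falls. Of the 344 rises, 112 (32.6%) had also risen from P8 to P14 and 31 (9.01%) had fallen (limma, adjusted p under 0.05), beside 13.6% and 15.3% of all gene IDs tested. The medians of the 112 climbed at every age, with levels of 1.95, 3.68, 5.64, 7.38 and 8.22 FPKM from P8 to P70. All 112 were higher at P70 than at P8, which their choice as rises in both steps makes likely. The 31 dipped and came back: their medians were 6.17, 3.65, 3.25, 4.04 and 5.16 FPKM, and 16 of them ended above their P8 mean. The dip and the return follow from their choice as falls and then rises. The remaining 201 had no call from P8 to P14, with medians of 2.62, 2.68 and 3.2 FPKM at P8, P14 and P21 and 4.89 FPKM at P70.

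Falls had mixed histories before weaning. Of the 520, 127 (24.4%) had also fallen from P8 to P14 and 106 (20.4%) had risen, beside 15.3% and 13.6% of all gene IDs tested. Both shares were thus above those of all gene IDs tested. The medians of the 127 declined throughout, at 14.5, 9.12, 6.52, 4.4 and 4.04 FPKM from P8 to P70. At P70, 0 of them were above their P8 mean, which their choice as falls in both steps makes likely. The 106 rose to a high around P14 and P21 and then returned, with medians of 9.74, 15.6, 14.3, 10.8 and 8.87 FPKM, and 47 of them were still above their P8 mean at P70. The rise and the later fall follow from their choice on both steps. The other 287 had no call from P8 to P14 and medians of 9.6, 8.94, 6.93, 5.31 and 4.7 FPKM. By mean FPKM, 252 of the 520 falls were highest at P8, 203 at P14 and 62 at P21. The lowest mean was at P70 for 433 (83.3%, against 27.9% of all tested), which their choice as falls makes likely. The share highest at P8 (48.5%) was near that of all gene IDs tested (44.9%), while the share highest at P14 was 39% against 17.4%. Of the 344 rises, 209 (60.8%) were lowest at P8, against 28.2% of all tested, and 71 (20.6%) at P14, against 8.96%. Another 63 (18.3%) were lowest at P21, against 19.4% of all tested. P21 and P70 also chose the gene IDs, so these shares carry no test.

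**Figure D5:**
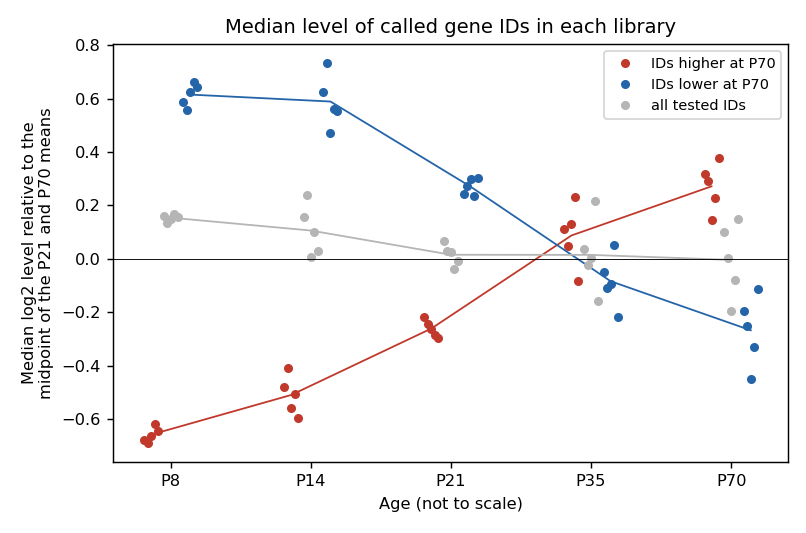
Median log2 level of the 344 rises (red), the 520 falls (blue) and all 14128 tested gene IDs (grey) in each library, relative to the midpoint of each gene ID's P21 and P70 means (vertical), by age (horizontal, not to scale); points are libraries and lines join the means of each age. Falls run from 0.61 at P8 through 0.27 at P21 to -0.27 at P70 and rises from -0.66 through -0.26 to 0.27, and the grey points show the offset of each library, from -0.2 to 0.15 at P70.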

How the data were processed

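Ribosomal RNA was depleted from total RNA and libraries were sequenced as single-end reads, per the labels' protocols. The authors deposited 1 table of FPKM values with Ensembl gene IDs as rows and libraries as columns, which was used as deposited. Alignment to the rn4 assembly was done with GSNAP, per the labels' protocols, while the submitters' processing notes name BWA 0.6.1, bedtools and Cufflinks. Not given in the sources used here: roles, annotation release, strand setting and treatment of reads with several matches. FPKM is relative: an abundant transcript in 1 library lowers all its other values.

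Columns were matched to libraries by title. Replicate numbers follow accession order and only name a library. Differences were tested with limma 3.58.1 (R 4.3.3) after taking log2(FPKM + 0.5), all 25 libraries in 1 fit with 1 mean per age (20 residual degrees of freedom), moderated with a mean-level trend, two-sided, with Benjamini-Hochberg adjustment over 14128 gene IDs, and it was checked on simulated data. Relative depth came from ratios between libraries among sparse gene IDs. Whole reads, each within 0.05 of a whole number for at least 95% of a gene ID's values, were recovered for 9467 gene IDs (67%), with a median of 194 reads per library. They summed to 1905437 to 5909064 reads per P21 or P70 library. After small random changes of the values, 0 of 1000 gene IDs were recovered.

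The rule for named genes listed the 12 largest rises and 12 largest falls that passed, did not overlap, had a mean of at least 5 FPKM at the higher age and held no value under 1 beside one of 10 or more FPKM within P21 or P70, and the 3 most abundant calls in each direction. Without names only the first 2 each way are printed as IDs, and the gene lists fixed for this study were not analysed here. The members, rules and lists were chosen with earlier results of these data known. Alternatives covered pseudocounts, filters, scalings, the libraries in the fit, a random block by the first title number and each library left out.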

Additional observations from a re-analysis of the deposited data

Results flagged for a closer look

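Of 20 groups of 5 libraries searched for one far from the rest, 1 was found, where chance alone gives about 1 in 20. ENSRNOG00000019183 reached 27.1 FPKM in replicate 5 of P21, while the other 4 P21 libraries held 5.51 to 7.98 FPKM. That library is also the shallowest of the 25. Whether depth has a part in the value was not tested.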

How the results depend on the processing

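The 4 printed gene IDs kept their direction and passed under each of the alternatives that could be fitted for them, 22 or 23 each. Their log2 changes ran from 1.5 to 2 (ENSRNOG00000011647), 1.47 to 1.71 (ENSRNOG00000015763), -4.04 to -2.68 (ENSRNOG00000019183) and -2.67 to -2.09 (ENSRNOG00000031686). Counts moved more: from 864 calls (344 rises, 520 falls) to 1386 (634 rises) after quantile normalization, 1436 (701 rises) after median-of-ratios scaling, 20 (10 and 10) with FPKM totals made equal, 448 (189 and 259) with a random block by the first title number, 229 rises from the 10 libraries of P21 and P70 alone, and 479 (150 and 329) where a mean of 5 FPKM or more was asked for and fewer gene IDs were tested (8156). Gene IDs without overlap numbered 114 with equal totals. Leaving out each P21 or P70 library gave 600 to 818 calls, with 240 to 397 rises and 340 (without P70 replicate 3) to 578 falls. The cause of these shifts was not tested. Among alternatives chosen after seeing the data, limma voom on recovered reads gave 514 calls (194 and 320), limma on the recovered gene IDs alone gave 535 (204 and 331), and leaving out the shallowest library of each age gave 220 rises. A random replicate block by the second title number gave 830 calls (322 and 508). That number recurs between ages but also within each age except P14. Its estimated correlation was -0.07, against 0.33 for the block by the first title number. The 4 gene IDs whose change differed before and after P35 became 2 with a pseudocount of 0.1, 8 without the filter, 11 after median-of-ratios scaling, 2 with equal totals and, in limma, 0 with a mean of 5 FPKM or more (257 before adjustment) and 0 with the block by the first title number (304 before adjustment); voom on recovered reads gave 5 and the block by the second title number 7. With 1 library left out they were 2 (each of P21 replicates 2 and 3, P35 replicates 1 and 4 and P70 replicate 2) to 9 (P35 replicate 5). The counts before adjustment, 257 and 304, were also fewer than chance alone would give on average. Depth limits the scarce gene IDs most, since 3 to 21 reads per P21 library stand behind the largest rise. No pairing of single libraries was made, since the labels do not say that a shared second number marks a shared animal, litter or day.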
